A study of Homo sapiens with 6 samples.

Results

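Expression was followed along the whole of human chromosome 20, gene by gene, in 6 RNA-seq libraries labelled as the lung adenocarcinoma line H1650. The members are the genes of chromosome 20 in the deposited expression table whose FPKM averaged 0.5 or more across the 6 libraries. FPKM is the number of fragments scaled to gene length and library size. Of 418 chromosome 20 genes listed, 372 met this limit, out of 14068 genes that met it on all chromosomes. The chromosome was chosen because its genes differ between the groups, so the differences below are a description of these libraries and were not tested as a property of the chromosome.

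H1650 is an established human line, and the libraries fall into 3 labelled control with the genotype wild type and 3 labelled shSETD2. SETD2 is the methyltransferase that marks histone H3 over transcribed gene bodies. According to the methods, stable lines were made with lentivirus and 3 short hairpin RNA constructs against SETD2 were cloned, but the labels leave unsaid if shSETD2 1 to 3 are different constructs or repeats of 1. They also do not say whether the control cells carried a control hairpin, or whether the libraries of a group came from separate cultures, so the spread and every adjusted p measure the variation among these libraries only.

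By FPKM in these libraries, the knockdown target did not separate the groups. The paper reports lowered SETD2 after knockdown in H1650 cells by other assays, real-time qPCR and western blotting. SETD2 stood at 18, 10.2 and 17.6 FPKM in the control and 8.97, 8.09 and 12.2 FPKM in the shSETD2 libraries 1 to 3, with control library 2 below shSETD2 library 3 (difference of log2(FPKM + 1) -0.58, SE 0.24, limma with Benjamini-Hochberg adjustment, adjusted p = 0.0641). Libraries correlated at 0.982 to 0.990 within a group and at 0.701 to 0.707 between groups across 14068 genes. Of 12 lung epithelium markers, 3 were listed, with a summed level of 16.6 to 18.3 FPKM in the control and 8.63 to 8.90 FPKM in the shSETD2 libraries, and NKX2-1 was listed at 0 in all shSETD2 libraries. Of 11 epithelium markers 10 were listed, and their sum was 14.9 to 17.2 FPKM against 408 to 462 FPKM, most of it from the keratins KRT18, KRT8 and KRT7. The cadherin CDH1 had means of 1.27 FPKM in the control and 0.012 FPKM in the shSETD2 libraries, EPCAM of 0.710 and 0.220 FPKM, and CLDN7 of 0.192 FPKM and near 0. The remaining listed epithelium markers were higher in the shSETD2 libraries. ELF3 had means of 0.221 and 4.23 FPKM, MUC1 of 0.639 and 2.65 FPKM, ESRP1 of 0.0176 and 0.803 FPKM, and CLDN4 of 0.067 and 0.175 FPKM. Of 11 mesenchyme markers 9 were listed (109 to 124 against 170.0 to 180.0 FPKM). Most of this sum was VIM, with means of 66.5 and 132 FPKM. Others of the list were lower, COL1A1 with 2.78 against 0.269 FPKM, SPARC with 4.46 against 0.0225 FPKM, COL3A1 with 0.739 against 0.00854 FPKM and ZEB2 with 1.99 against 0.656 FPKM, and TWIST1 was at 0 in the shSETD2 libraries. Mesenchyme markers with a mean of 1 FPKM or more numbered 8 in the control and 4 in the shSETD2 libraries. Of 10 kidney lineage markers 9 were listed (26.2 to 28.1 against 60.2 to 71.3 FPKM), with SALL1, EYA1 and SIX2 at 0 in the shSETD2 libraries and PAX8 at means of 0.0172 and 30.8 FPKM. Of 9 blood cell markers 2 were listed, and their sum stayed between 0.433 and 0.772 FPKM. HBA1 had means of 0.288 FPKM in the control and 0 in the shSETD2 libraries, and CD14 of 0.320 and 0.588 FPKM. Markers of several lineages thus differed between the groups together with chromosome 20, and their part in the results below was not tested. That both groups are 1 cell line rests on the labels and was not tested, so each difference below is one between the libraries labelled shSETD2 and those labelled control. In bulk RNA, fewer cells of a type and less RNA per cell cannot be told apart.

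Chromosome 20 is a small chromosome with a gene-rich long arm (20q), a shorter short arm (20p) and a centromere between them. It carries regulators of cell division such as the mitotic kinase AURKA and its activator TPX2, the survival factor BCL2L1, the ribosomal protein gene RPS21 and the imprinted GNAS locus. Neighbouring genes on a chromosome can share copy number, chromatin domains and promoters. Gain of the long arm is a known feature of carcinomas of several organs, given here as background, since DNA was not measured in these libraries.

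Members were placed on GRCh37 by the positions in the deposited table. The reference sequence has one long run of unread bases on this chromosome, from 26319570 to 29419569, and it was used as the boundary of the arms. On this division 117 members lie on the short arm and 255 on the long arm. By biotype 336 are protein-coding, 18 are long intergenic non-coding RNAs and 14 are sense intronic transcripts.

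Promoters are shown first for members with large differences in each direction. RefSeq promoters (250 bases before and 50 after the start, table of GRCh38.p14) were at hand for 260 of 372 members (69.9%), too few for a comparison of base composition between groups of members. Those printed were also found letter for letter in GRCh37, whose positions are given. Each reads 5′ to 3′ on the strand of its gene, and capitals mark CG dinucleotides, the site of DNA methylation. The RefSeq start lies within 98 bases of the 5′ end listed for these 4 genes. The windows of STMN3 and PLTP were left out, since their RefSeq starts lie 4916 and 1161 bases inside the listed gene. CTSZ encodes a lysosomal cathepsin and BCL2L1 an inhibitor of cell death, and both were called higher in the shSETD2 libraries.
CTSZ, chr20:57582260-57582559, minus strand: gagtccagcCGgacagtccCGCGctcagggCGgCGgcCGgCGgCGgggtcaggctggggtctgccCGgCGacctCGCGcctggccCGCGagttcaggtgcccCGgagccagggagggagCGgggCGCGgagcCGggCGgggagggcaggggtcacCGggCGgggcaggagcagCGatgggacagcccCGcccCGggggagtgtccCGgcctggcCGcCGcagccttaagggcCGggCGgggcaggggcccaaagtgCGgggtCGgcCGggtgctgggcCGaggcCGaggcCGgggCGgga
BCL2L1, chr20:30311717-30312016, minus strand: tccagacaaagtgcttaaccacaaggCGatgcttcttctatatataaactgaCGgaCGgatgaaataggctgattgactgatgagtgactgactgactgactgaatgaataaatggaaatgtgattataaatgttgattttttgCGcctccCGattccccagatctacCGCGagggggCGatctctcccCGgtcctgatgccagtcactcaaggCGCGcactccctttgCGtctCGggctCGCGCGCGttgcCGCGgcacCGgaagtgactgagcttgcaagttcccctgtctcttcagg
The other promoters belong to members that were lower in the shSETD2 libraries. SULF2 encodes a heparan sulfate sulfatase and EBF4 a transcription factor of the early B-cell factor family.
SULF2, chr20:46415322-46415621, minus strand: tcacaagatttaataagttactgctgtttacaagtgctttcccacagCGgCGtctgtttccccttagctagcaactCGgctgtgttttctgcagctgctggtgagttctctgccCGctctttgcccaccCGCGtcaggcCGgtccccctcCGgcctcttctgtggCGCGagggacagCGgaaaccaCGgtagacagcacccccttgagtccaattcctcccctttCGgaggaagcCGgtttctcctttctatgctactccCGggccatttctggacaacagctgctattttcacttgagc
EBF4, chr20:2673176-2673475, plus strand: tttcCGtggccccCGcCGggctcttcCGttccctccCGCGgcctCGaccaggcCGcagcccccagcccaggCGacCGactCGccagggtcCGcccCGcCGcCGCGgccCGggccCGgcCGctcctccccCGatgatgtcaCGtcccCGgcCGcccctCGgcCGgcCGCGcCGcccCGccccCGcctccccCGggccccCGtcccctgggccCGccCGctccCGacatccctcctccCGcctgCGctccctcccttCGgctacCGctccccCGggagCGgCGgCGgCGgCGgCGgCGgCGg
The windows of the higher genes hold 37 (CTSZ) and 20 (BCL2L1) CG dinucleotides, at 81.0% and 52.0% G and C. Those of the lower genes hold 15 (SULF2) and 48 (EBF4), at 55.7% and 83.7%. Windows with more and with fewer CG dinucleotides occur in both directions among these 4 genes.

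Chromosome 20 stood above the rest of the genome in the shSETD2 libraries. For each gene the difference is the mean of log2(FPKM + 1) in the shSETD2 libraries minus that in the control libraries, so a difference of 1 is about a doubling of FPKM in genes well above 1 FPKM and understates the change of genes below it. The median difference over the 372 members was 0.40, against -0.29 over all 14068 genes and -0.30 over the 13696 genes of other chromosomes. Taken library by library against the control mean, the median over members was 0.42, 0.40 and 0.44 in shSETD2 libraries 1 to 3 and 0 in each control library. The replicate SD of the chromosome 20 median was 0.018, and its distance from the median of all genes was 0.69 with a replicate SD of 0.025. The 3 shSETD2 libraries lay close together and apart from the control libraries.

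The whole distribution was shifted, not only its top. The 10th percentile of the differences was -0.87 on chromosome 20 and -1.36 over all genes, the 25th was -0.22 against -0.83, the 75th was 1.02 against 0.30 and the 90th was 1.77 against 1.10. Differences above 1 were found in 97 members (26.1%), against 11.2% of all genes. Differences below -1 were found in 30 members (8.06%), against 18.8% of all genes. Above the median of all genes lay 286 members (76.9%, background 50.0%).

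**Figure D1:**
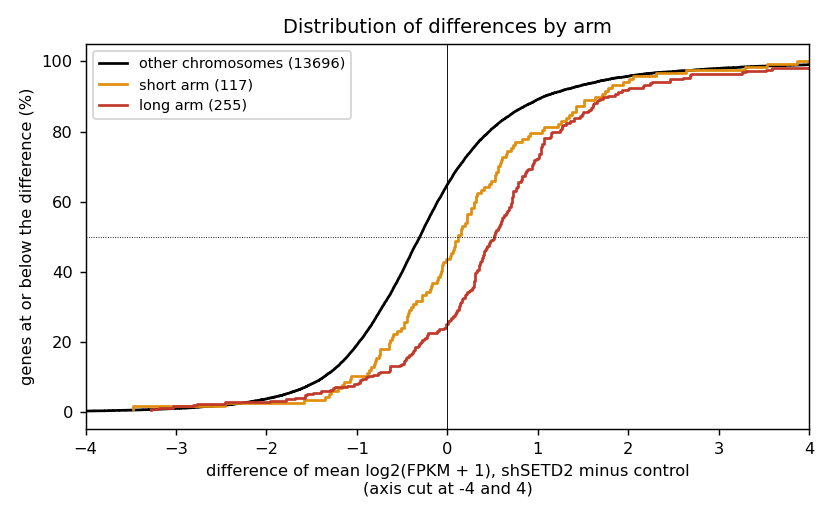
Share of genes (%, vertical axis) at or below each difference of mean log2(FPKM + 1), shSETD2 minus control (horizontal axis, shown from -4 to 4), for 117 short arm members, 255 long arm members and 13696 genes of other chromosomes. The long arm curve lies furthest right with a median of 0.52, the short arm follows with 0.15, and the other chromosomes have a median of -0.30.

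By limma with an adjusted p under 0.05, 213 members were called higher in the shSETD2 libraries (57.3%), beside 26.8% of all genes. Called lower were 87 members (23.4%), beside 51.8% of all genes. The remaining 72 were not called, so that 300 members (80.6%) were called in either direction, beside 78.6% of all genes. In 218 members every shSETD2 library was above every control library (58.6%, background 27.9%), and in 91 every control library was above every shSETD2 library (24.5%, background 53.0%). The groups overlapped in 63 members. These calls come from the contrast by which the chromosome was chosen and are given as counts. Of the called members 71.0% were higher, against 34.1% of the called genes of all chromosomes, and with each library scaled by its median ratio to the geometric mean these shares were 80.8% and 48.6%. That scaling moved the median of all genes from -0.29 to -0.03 and quantile normalization moved it to -0.10, so levels are best read as distances from this median.

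Among 23 chromosomes (1 to 22 and X) chromosome 20 had the highest median difference, and it kept that rank in all 16 alternative settings tried. Settings that alter only the error model (no trend, a replicate block) cannot move a median. The chromosome was chosen by this contrast, so its rank is a description. Chromosome 18 followed with 0.06 over 217 genes and chromosome 16 with -0.03 over 691 genes. The lowest medians were those of chromosome 4 (-0.65 over 491 genes) and chromosome 13 (-0.73 over 257 genes). The distance from chromosome 20 to chromosome 18 exceeded the range among the shSETD2 libraries of either, which ran from 0.40 to 0.44 and from 0.06 to 0.07.

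**Figure D2:**
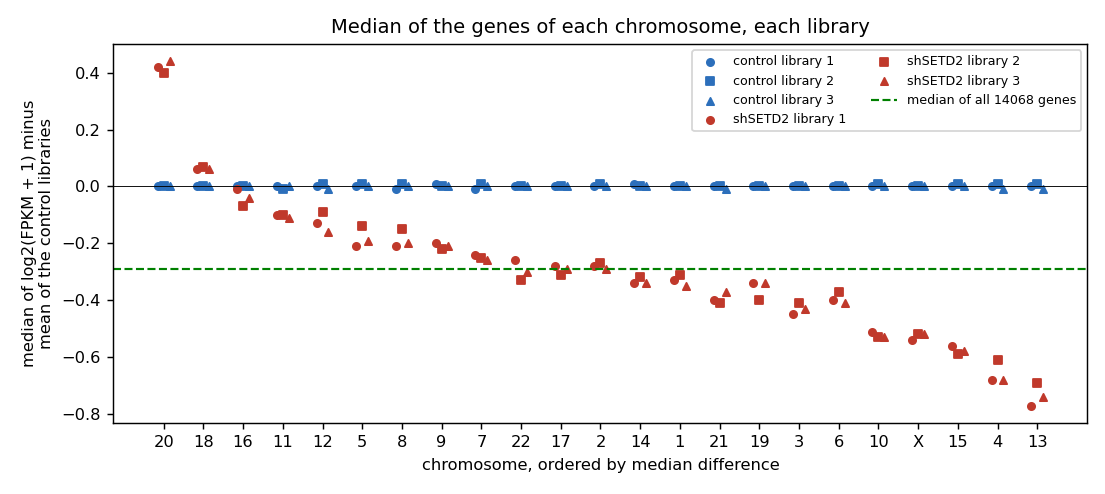
Median over the genes of each chromosome of log2(FPKM + 1) minus the mean of the control libraries (vertical axis), with a point for each of the 6 libraries, and chromosomes ordered by their median difference (horizontal axis). In chromosome 20 the shSETD2 libraries sit at 0.40 to 0.44, above those of each other chromosome, and the dashed line marks the median of all 14068 genes at -0.29.

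As a share of RNA, chromosome 20 took up more of the summed FPKM of all listed genes in the shSETD2 libraries. Its share was 1.95%, 1.98% and 1.94% in control libraries 1 to 3 and 3.82%, 3.72% and 3.69% in shSETD2 libraries 1 to 3, or 1.96% ± 0.021 and 3.74% ± 0.068 (SD, n = 3 each). The short arm held 0.638%, 0.662% and 0.644% against 0.951%, 0.937% and 0.915%. The long arm held 1.32%, 1.32% and 1.30% against 2.87%, 2.78% and 2.78%. The groups did not overlap for either arm. Without the 8 members that rose most, the share of the chromosome was 1.94%, 1.97% and 1.93% in the control and 3.36%, 3.27% and 3.23% in the shSETD2 libraries, so most of the excess lay outside those genes.

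The arms differed. The median difference was 0.15 over the short arm and 0.52 over the long arm, 0.37 apart, with a replicate SD of 0.021 for this distance. In shSETD2 libraries 1 to 3 the short arm median was 0.15, 0.14 and 0.12 and the long arm median was 0.55, 0.51 and 0.52. On the short arm 55 members were called higher and 37 lower (47.0% and 31.6%), and on the long arm 158 and 50 (62.0% and 19.6%). Of all genes 26.8% were called higher and 51.8% lower. The 25th percentile of the differences was -0.45 on the short arm and 0.01 on the long arm, and 192 of 255 long arm members (75.3%) stood above 0, beside 36.1% of all genes.

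The short arm itself was uneven. Its first 5 Mb, at the end of the arm, held 50 members with a median of 0.43, of which 32 were called higher and 8 lower. The 67 members between there and the centromere had a median of -0.12, which was 0.17 above the median of all genes and turned to 0.17 itself under median ratio scaling. As deposited, 23 of the 67 were called higher (34.3%) and 29 lower (43.3%), beside 26.8% and 51.8% of all genes. This part of the arm was thus called lower less often than all genes. In shSETD2 libraries 1 to 3 the first 5 Mb had medians of 0.39, 0.39 and 0.43, and the rest of the arm had -0.09, -0.11 and -0.10. The end of the short arm was thus nearer in level to the long arm than to the rest of its own arm.

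In bins of 5 Mb of start position, the medians were lower toward the centromere on the short arm and stood above 0 in each long arm bin. After the first bin they were -0.06 (5 to 10 Mb, 16 genes), -0.12 (10 to 15 Mb, 9 genes), -0.12 (15 to 20 Mb, 20 genes), -0.40 (20 to 25 Mb, 15 genes) and -0.45 (25 to 30 Mb, 7 genes, all of the short arm). The last of these bins rests on few genes and its shSETD2 libraries ranged from -0.54 to -0.29. The bins from 5 to 20 Mb lay 0.17 to 0.23 above the median of all genes, and their own sign depends on the scaling, with medians of 0.16 to 0.25 under median ratio scaling and 0.01 to 0.08 under quantile normalization. The 2 bins from 20 Mb to the centromere were below the median of all genes under each scaling tried, by 0.11 and 0.16 as deposited. Beyond the centromere the medians were 0.53 (30 to 35 Mb, 69 genes), 0.30 (35 to 40 Mb, 34 genes), 0.70 (40 to 45 Mb, 43 genes), 0.51 (45 to 50 Mb, 32 genes), 0.40 (50 to 55 Mb, 8 genes), 0.41 (55 to 60 Mb, 20 genes) and 0.59 (60 to 65 Mb, 49 genes). Between 55 and 60 Mb the shSETD2 libraries spread most among the long arm bins, from 0.45 to 0.62, and from 45 Mb on the library ranges of neighbouring bins overlap.

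**Figure D3:**
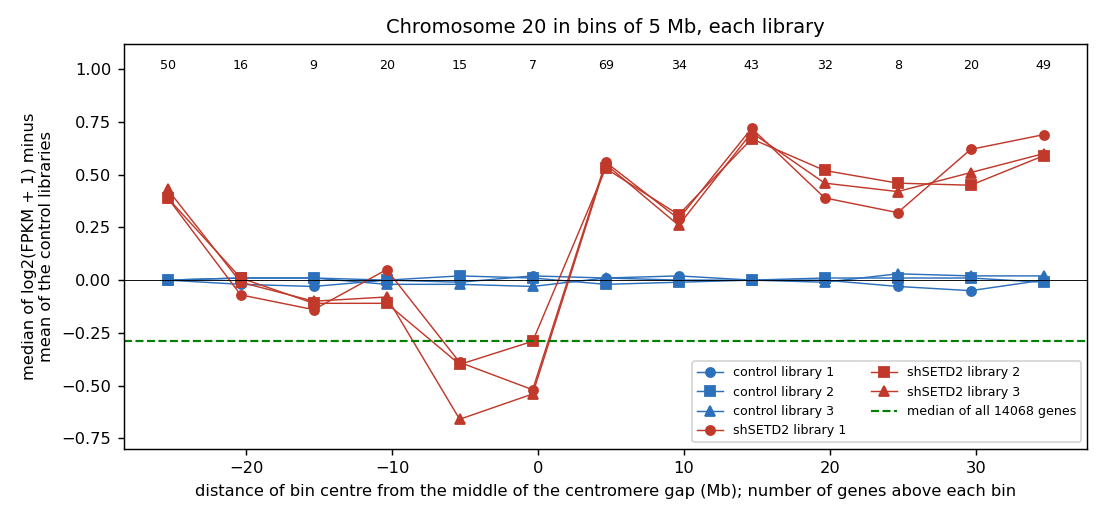
Median over genes of log2(FPKM + 1) minus the mean of the control libraries (vertical axis) in bins of 5 Mb, plotted by the distance of the bin centre from the middle of the centromere gap (horizontal axis, Mb), 1 line for each library and the number of genes above each bin. The 3 shSETD2 lines start at 0.39 to 0.43, sink toward the centromere, to -0.66 at the lowest, and stand at 0.26 to 0.72 in the 7 long arm bins.

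Genes at both ends of the range were found in most bins. In the first bin SIRPA, an inhibitory receptor that binds CD47, and PRNP, the prion protein gene, rose beside EBF4, which fell. Between 25 and 30 Mb the highest was PYGB, the brain form of glycogen phosphorylase, at 15.2, 15.1 and 14.6 FPKM in the control and 63.0, 61.0 and 65.4 FPKM in the shSETD2 libraries, a rise of 2.01 (SE 0.041) within the bin of the lowest median. Between 45 and 50 Mb PARD6B, a cell polarity protein, rose by 3.52, while SULF2 was listed at 0 in the shSETD2 libraries. Between 60 and 65 Mb SLCO4A1, an organic anion transporter, rose by 6.09 and TCFL5, a helix-loop-helix transcription factor, fell by 1.26.

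Set against other chromosomes, 509 bins of 5 Mb held at least 8 genes, 12 of them on chromosome 20. The 497 bins elsewhere had a median of -0.33 and ranged from -1.79 to 1.01, with 89 (17.9%) above 0. On chromosome 20, 8 of 12 stood above 0, of which 7 lie side by side on the long arm. The highest, from 40 to 45 Mb, was 11th of all 509, so single bins elsewhere reached as high, and the lowest, from 20 to 25 Mb, was 290th.

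In running windows of 25 neighbouring members, all 231 windows of the long arm had a median above 0. The highest was 0.93, from YWHAB to CD40 (chr20:43514317-44746911, by gene starts). The lowest was 0.09, from ATP5E to GID8 (chr20:57600522-61569471). On the short arm 52 of 93 windows were above 0 and 80 were above the median of all genes, with the highest at 0.65 from TRIB3 to VPS16 (chr20:343479-2821349) and the lowest at -0.48 from SNX5 to LINC01431 (chr20:17922241-23337231). Overlapping windows share genes and are not independent.

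The longest unbroken run of members above the median of all genes held 26 genes from UBOX5 to MCM8 (chr20:3088219-5979623), on the short arm across the border of its first 5 Mb. On the long arm a run of 19 reached from EEF1A2 to PRPF6 (chr20:62119366-62664453), one of 16 from YWHAB to ACOT8 and one of 15 from C20orf24 to TGM2 (chr20:35234137-36794980). Runs below the median were short. The longest had 4 genes, from GINS1 to ZNF337 (chr20:25388363-25677477), next to the centromere, and from AL391095.1 to SNHG11 on the long arm. Within the long runs the differences still varied widely, from -0.24 to 3.86 in the first and from -0.02 to 7.42 in the last. Above the median of all genes lay 69.2% of short arm and 80.4% of long arm members. Long runs above it and short runs below it are thus likely even for unrelated neighbours, and run lengths were not tested.

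**Figure D4:**
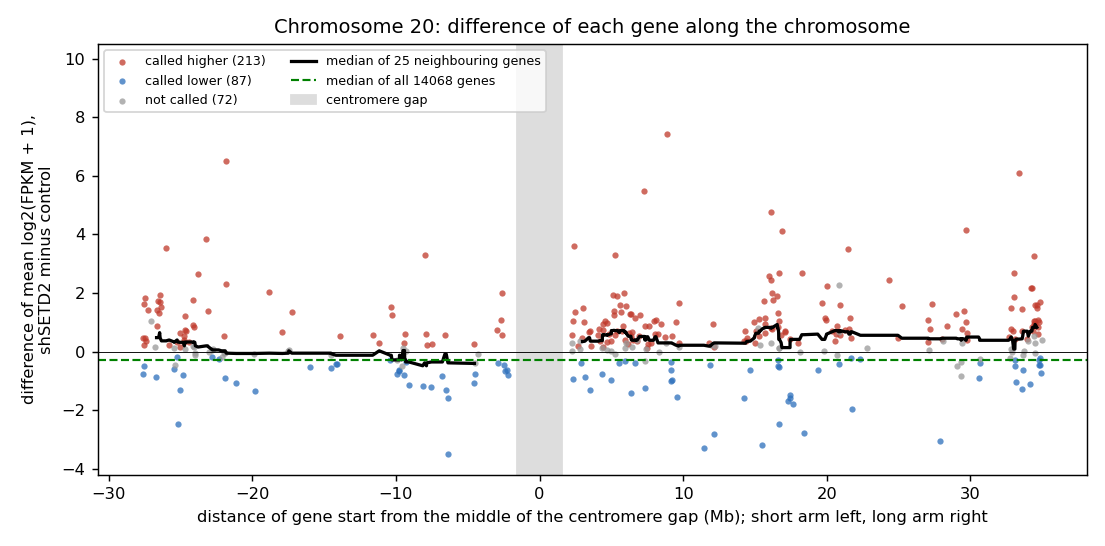
Difference of mean log2(FPKM + 1), shSETD2 minus control (vertical axis), of each of 372 genes by the distance of its start from the middle of the centromere gap (horizontal axis, Mb, short arm left), coloured by call, with the median of 25 neighbouring genes as a line. The line stays above 0 along the long arm, between 0.09 and 0.93, and falls from 0.65 or less to as low as -0.48 along the short arm, while single genes scatter from -3.48 to 7.42.

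Adjacent members were weakly alike in rank. Between the differences of adjacent members, Spearman's rho was 0.33 over 116 pairs of the short arm and 0.13 over 254 pairs of the long arm, against 0.24 over 13648 pairs of other chromosomes. Neighbours share their libraries, and pairs share genes, so these values are a description. Both neighbours were on the same side of the median of all genes in 64.7% of short arm pairs, 70.9% of long arm pairs and 59.2% of pairs elsewhere. Unrelated neighbours would be on the same side in 57.5%, 68.4% and 50.0% of these pairs, given how many genes lie above that median, so the share on the long arm was close to this value.

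Head-to-head neighbours, whose 5′ ends on opposite strands lie within 1000 bases, may share a promoter. Chromosome 20 had 25 such pairs with both genes among the members, of which both were called higher in 7 (28.0%) and both lower in 3 (12%). Among 1187 pairs of other chromosomes these were 102 (8.59%) and 403 (34.0%). Single genes were called higher in 57.3% of members and 26.0% of genes elsewhere, and lower in 23.4% and 52.5%. The pair shares depend on these single-gene shares, and an excess of shared change was not tested. Some genes recur among the pairs, such as ARFRP1, and some partners overlap, such as RALY-AS1 and RALY by 711 bases. Spearman's rho between partners was 0.30 on chromosome 20 and 0.33 elsewhere. The stretches between 3 pairs are printed for a pair that rose together, one that fell together and one that moved apart, chosen among pairs whose RefSeq promoters both reach the stretch. Capitals mark the bases between the 5′ ends, lower case the first 30 bases of either gene, on the plus strand of GRCh37.
CENPB and CDC25B, chr20:3767308-3767448: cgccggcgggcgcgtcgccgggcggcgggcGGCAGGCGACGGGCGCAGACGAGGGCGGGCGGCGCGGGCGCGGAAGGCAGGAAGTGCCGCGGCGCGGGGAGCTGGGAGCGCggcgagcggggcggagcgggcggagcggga
ESF1 and NDUFAF5, chr20:13765503-13765625: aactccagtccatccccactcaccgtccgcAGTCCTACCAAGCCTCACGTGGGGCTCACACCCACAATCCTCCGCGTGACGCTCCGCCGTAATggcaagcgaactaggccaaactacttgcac
PLAGL2 and POFUT1, chr20:30795565-30795712: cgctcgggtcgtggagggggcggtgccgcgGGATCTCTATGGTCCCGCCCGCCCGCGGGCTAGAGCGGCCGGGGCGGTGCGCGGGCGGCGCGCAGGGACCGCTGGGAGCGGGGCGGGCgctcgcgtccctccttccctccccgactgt
CENPB, a centromere DNA-binding protein, was at 23.9, 24.1 and 24.8 FPKM in the control and 48.7, 42.9 and 48.0 FPKM in the shSETD2 libraries. CDC25B, a phosphatase that activates cyclin-dependent kinases, was at 7.97, 13.9 and 13.3 against 47.4, 40.4 and 37.4 FPKM. Over a shared stretch of 81 bases with 15 CG dinucleotides, both rose, by 0.91 (SE 0.056) and 1.78 (SE 0.21), and the groups did not overlap.

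ESF1, a nucleolar factor of ribosomal RNA processing, was at 16.7, 17.8 and 20.1 FPKM in the control and 11.6, 15.9 and 12.7 FPKM in the shSETD2 libraries. Its partner NDUFAF5, an assembly factor of respiratory complex I, was at 2.54, 2.62 and 2.54 against 1.61, 1.77 and 1.55 FPKM. The differences were -0.42 (SE 0.12) and -0.43 (SE 0.056) over 63 bases with 6 CG dinucleotides, and the call of ESF1 was lost without control library 3 (adjusted p = 0.0556, limma) or without shSETD2 library 3 (adjusted p = 0.0531, limma). The shared fall depends on the scaling, since ESF1 was not called under median ratio scaling (-0.11, adjusted p = 0.431, limma) nor NDUFAF5 under quantile normalization (-0.08, adjusted p = 0.238, limma). PLAGL2, a zinc finger transcription factor, was lower, at 18.8, 17.9 and 18.2 FPKM against 14.3, 12.6 and 14.5 FPKM. POFUT1, which adds fucose to Notch receptors, was higher, at 16.3, 15.2 and 15.4 FPKM against 22.4, 22.0 and 22.4 FPKM. A gap of 88 bases with 15 CG dinucleotides thus stood between genes that moved apart, by -0.38 (SE 0.062) and 0.48 (SE 0.042), although PLAGL2 was not called under median ratio scaling (-0.07, adjusted p = 0.358, limma).

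The largest shared rise of such a pair, ARFRP1 with 1.04 and ZGPAT with 1.05, is uncertain, since the genes overlap by 560 bases. The libraries were made with a stranded kit, but the strand setting of the counting is not given in the sources used here. STMN3, a microtubule-destabilizing stathmin, was at 7.85, 8.19 and 6.39 FPKM in the control and 80.3, 73.3 and 85.9 FPKM in the shSETD2 libraries (difference 3.26). RTEL1, a helicase of telomere maintenance, was at 2.72, 1.85 and 3.56 against 5.81, 5.63 and 6.48 FPKM (difference 0.94). By their listed 5′ ends they lie head to head, but the RefSeq start of STMN3 lies 4916 bases inside the listed gene. From that start the genes are not within 1000 bases, so their place among the pairs is uncertain. The largest shared fall was that of SOX18, a transcription factor of vessel development, with -0.47, and TCEA2, an elongation factor, with -0.46. SOX18 was low, at 0.911, 1.36 and 1.46 FPKM against 0.910, 0.634 and 0.340 FPKM, and its call was lost without control library 2, control library 3, shSETD2 library 2 or shSETD2 library 3 (adjusted p = 0.0878, 0.0917, 0.0719 and 0.0786, limma). It was also lost under median ratio scaling (-0.32, adjusted p = 0.115, limma), and the difference was 0.02 under quantile normalization.

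The 8 members with the largest rises started from control levels between 0 and 8.78 FPKM and reached 34.9 to 259 FPKM in the shSETD2 libraries. TGM2, a transglutaminase that cross-links matrix proteins (chr20:36755789-36794980, minus strand, long arm), had 0.462, 0.568 and 0.396 FPKM in the control and 258, 238 and 259 FPKM in the shSETD2 libraries 1 to 3. LRRN4, a leucine-rich repeat membrane protein (chr20:6021424-6034695, minus strand, short arm), was at 0, 0.0344 and 0.0383 FPKM against 94.5, 84.0 and 96.5 FPKM. SLCO4A1 (chr20:61273797-61317137, plus strand, long arm) was at 2.00, 2.22 and 2.60 FPKM against 232, 208 and 227 FPKM. The differences were 7.42 (SE 0.061), 6.5 (SE 0.065) and 6.09 (SE 0.079), and no library of a group reached the other group.

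MYL9, a myosin regulatory light chain, was at 0, 0 and 0.0558 FPKM against 45.5, 41.0 and 47.5 FPKM. SDC4, a heparan sulfate proteoglycan of focal adhesions, was at 6.64, 7.54 and 6.39 FPKM against 212, 212 and 212 FPKM. Both rose, by 5.48 (SE 0.068) and 4.76 (SE 0.059). CTSZ was at 1.99, 1.74 and 1.69 against 49.2, 47.0 and 49.8 FPKM, CD40, a receptor of the tumour necrosis factor family, at 0.892, 1.24 and 1.46 against 34.9, 38.6 and 37 FPKM, and PRNP at 8.78, 5.45 and 4.995 against 101, 108 and 104 FPKM. These rose by 4.15, 4.11 and 3.86. The 8 genes came from 4 bins of the long arm and 2 of the short arm.

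The largest falls were of genes listed at 0 in the shSETD2 libraries. AL133325.3, a non-coding gene between NKX2-4 and NKX2-2, was at 10.4, 10.3 and 9.78 FPKM in the control and listed at 0 in all 3 shSETD2 libraries. RIMS4, a synaptic active zone protein, was at 7.96, 7.63 and 8.78 FPKM, and BMP7, a bone morphogenetic protein, at 7.64, 7.22 and 6.71 FPKM, both listed at 0 in the shSETD2 libraries. EMILIN3, a matrix glycoprotein, was at 6.31, 5.51 and 6.31 FPKM and SULF2 at 5.31, 5.87 and 6.28 FPKM, also against 0. EBF4 was at 5.09, 4.67 and 5.73 against 0.167, 0.0592 and 0.135 FPKM and PLTP, a phospholipid transfer protein, at 6.88, 6.88 and 8.84 against 0.600, 0.624 and 0.423 FPKM, both with a difference of -2.46.

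**Figure D5:**
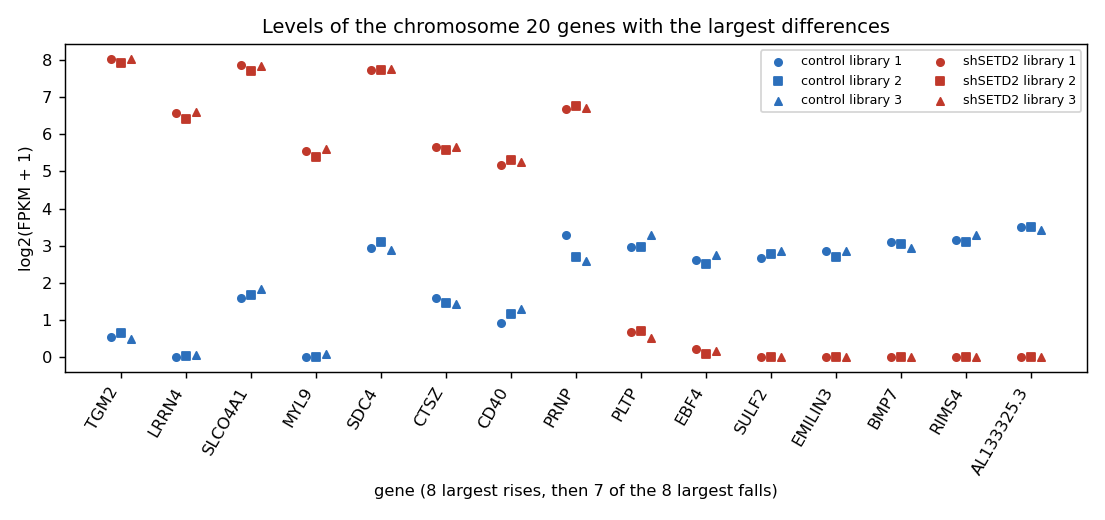
Level as log2(FPKM + 1) (vertical axis) in each of the 6 libraries for the 8 members with the largest rises and 7 of the 8 with the largest falls (horizontal axis). The groups do not overlap in any of the 15 genes, the falls start from control levels below 11 FPKM and 5 of them end at 0, and the rises end between 34.9 and 259 FPKM.

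In all, 13 members (3.49%, background 2.84%) were listed at 0 in all shSETD2 libraries and 3 (0.806%, background 1.02%) in all control libraries. The 13 include INSM1, NKX2-4, AL133325.3, NKX2-2, EMILIN3, RIMS4, SLC2A10, EYA2, SULF2, KCNG1, BMP7 and GATA5. The 3 at 0 in the control libraries were SIRPB2, the autophagy gene MAP1LC3A and the protease inhibitor SLPI. An exact 0 in such a table can be a failed estimate, and MAP1LC3A, at 7.50, 10.4 and 8.82 FPKM in the shSETD2 libraries, is a widely expressed gene. Without the genes at 0 in either group, the long arm median was 0.55 over 244 genes.

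By mean FPKM over all 6 libraries, a level that the difference itself enters, medians were higher among stronger genes on chromosome 20 and elsewhere. Below a mean of 5 FPKM the median difference was -0.14 over 136 members (all genes -0.46), from 5 to 20 FPKM it was 0.46 over 147 (all genes -0.18) and from 20 FPKM it was 1.04 over 89 (all genes 0.04). Of these 89 members 76 were called higher (85.4%) and 5 lower (5.62%), beside 44.5% and 40.8% of the 1664 genes of this level on all chromosomes. With the level taken from the control libraries alone, a choice made after the data were seen, the medians lay closer, at 0.30 below 5 FPKM (162 members), 0.36 from 5 to 20 FPKM (161) and 0.56 from 20 FPKM (49). All genes in these classes had -0.25, -0.31 and -0.38, so the members stood higher in each class. By gene length the medians were 0.21 below 10 kb (89 members), 0.54 from 10 to 50 kb (167) and 0.36 from 50 kb (116), against -0.34, -0.26 and -0.29 over all genes of these lengths. Protein-coding members had a median of 0.49, against -0.26 over all protein-coding genes. Non-coding members had -0.11 (36 genes), above the median of all genes (-0.29), and were not compared with non-coding genes elsewhere.

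The 5 members with the highest mean level were TGM2, described above, and 4 that differed in size and direction. RPS21, a protein of the small ribosomal subunit whose processed copies elsewhere in the genome could share its reads, was at 177, 159 and 172 FPKM in the control and 238, 215 and 238 FPKM in the shSETD2 libraries, a rise of 0.44 (SE 0.059). SNRPB, a core protein of spliceosomal particles, was at 155, 165 and 165 against 180, 164 and 182 FPKM, a difference of 0.12 that was not called, with overlapping groups. Without shSETD2 library 2 its difference was 0.16 and was called (adjusted p = 0.0116, limma), and it was also called under upper quartile scaling (0.17, adjusted p = 0.0163, limma) and median ratio scaling (0.45, adjusted p = 0.000304, limma). Under quantile normalization it was -0.11 and not called. PCNA, the sliding clamp of DNA replication, fell, from 149, 150 and 151 to 132, 134 and 134 FPKM (difference -0.17, SE 0.026). PCNA changed sign under median ratio scaling (0.17), so its direction depends on how the libraries are scaled. EEF1A2, the tissue-restricted form of translation elongation factor 1 alpha, was at 55.7, 57.6 and 58.5 against 260, 249 and 272 FPKM, a rise of 2.17 (SE 0.043).

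Near the lower limit of 0.5 FPKM, BFSP1 (mean 0.520 FPKM), GATA5 (0.524) and RAD21L1 (0.544) were just inside. SPATA25 (0.485) and TSHZ2 (0.470) were just outside. GATA5 stood at 1.01, 0.958 and 1.18 FPKM in the control and at 0 in the shSETD2 libraries, and TSHZ2 at 0.954, 0.941 and 0.923 FPKM against 0. RAD21L1 stood at 0.0748, 0.0621 and 0.102 against 0.877, 1.10 and 1.04 FPKM. GATA5 and TSHZ2, on either side of the limit, had the same pattern. Through the shSETD2 mean alone 15 members (4.03%, background 4.82%) reached 0.5 FPKM, and through the control mean alone 31 (8.33%, background 12.7%).

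Grouped by function, 112 of 372 members (30.1%) belong to a list written by hand, and the lists mix genes from both arms. Of 20 genes of cell division and DNA replication, all members, 15 were called higher (75%), 3 lower (15%) and 2 neither, beside 26.8% higher and 51.8% lower of all genes and 57.3% and 23.4% of the members, with a median difference of 0.37, close to that of the chromosome. TPX2 was at 56.3, 58.9 and 58.9 FPKM against 151, 150 and 150 FPKM and rose by 1.36 (SE 0.032). AURKA was at 19.8, 18.3 and 12.5 against 25.8, 44 and 41 FPKM, a rise of 1.07 whose larger SE of 0.24 reflects the spread in both groups. Its head-to-head partner CSTF1, a cleavage factor of messenger RNA, lay 34 bases away and had a difference of 0.06 that was not called, but was called under median ratio scaling (0.37, adjusted p = 0.00453, limma). UBE2C, a ubiquitin-conjugating enzyme of mitotic exit, rose by 0.83, MYBL2, a transcription factor of the cell cycle, by 0.47, and FAM83D, a spindle protein, by 1.65. The highest of the list was CDC25B with 1.78 and the lowest KIZ, a centrosome protein, with -0.84, beside falls of PCNA and of GINS1, a subunit of the replicative helicase (-0.45). Neither fall held under median ratio scaling, where PCNA was called higher and GINS1 was not called (-0.14, adjusted p = 0.153, limma).

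Of 24 genes of RNA processing, protein synthesis and breakdown, all members, 19 were called higher (79.2%), 2 lower (8.33%, NOP56 and ESF1) and 3 neither (PSMF1, SNRPB and RBM39), beside 26.8% and 51.8% of all genes. RBM39, a splicing factor, was called higher under median ratio scaling (0.49, adjusted p = 0.00406, limma). NOP56, a nucleolar protein of ribosomal RNA modification, had a difference of -0.19 that was 0.13 under median ratio scaling, and PSMF1, a proteasome inhibitor, was called higher without shSETD2 library 3 (difference 0.36, adjusted p = 0.0264, limma) in place of 0.15. The median was 0.80. EIF6, which keeps ribosomal subunits apart, was at 23.9, 24.7 and 26.2 FPKM against 76.0, 71.9 and 77.7 FPKM and rose by 1.55 (SE 0.050). Parts of the proteasome in the last bin rose, PSMA7 by 1.49 and the ubiquitin receptor ADRM1 by 1.85. The ubiquitin ligase ITCH rose by 1.93 and RPN2, a subunit of the oligosaccharyltransferase, by 1.04.

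Of 30 genes of signaling ligands, receptors, kinases and phosphatases 22 were listed and 19 were members, of which 14 were called higher (73.7%) and 5 lower (26.3%), with a median of 0.93. The shares were 57.3% and 23.4% over all members and 26.8% and 51.8% over all genes. After SDC4 and CD40 the largest rise was that of SIRPA, at 3.16, 2.92 and 3.33 FPKM against 47.9, 45.9 and 46.7 FPKM (3.53, SE 0.051). PROCR, the endothelial protein C receptor, rose by 2.01, PLCB4, a phospholipase C, by 2.05, TRIB3, a pseudokinase of the stress response, by 1.63, JAG1, a Notch ligand, by 1.34 and the tyrosine kinase SRC by 1.07. The called falls were BMP7, BMP2 (-1.08), PLCB1 (-1.35), PLCG1 (-0.45) and the nociceptin receptor OPRL1 (-0.23). OPRL1, below 1 FPKM in each library, lost its call without any 1 of the libraries other than control library 1 (adjusted p from 0.0695 to 0.103, limma), and its difference was 0.29 under quantile normalization. PLCG1 was not called under median ratio scaling (-0.13, adjusted p = 0.0671, limma). Both bone morphogenetic proteins of the list were thus lower, and 2 of its 3 phospholipases C.

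Of 32 DNA-binding transcription factors 25 were listed and 22 were members, with 7 called higher (31.8%), 11 lower (50.0%) and 4 neither. These shares are near those of all genes (26.8% and 51.8%), and the median was -0.46. Its median stayed below that of all genes under each scaling tried, by 0.17 as deposited and by 0.05 under quantile normalization. ZNF217, a zinc finger repressor, was at 8.15, 8.58 and 8.61 FPKM against 50.3, 51.6 and 50.6 FPKM and rose by 2.46 (SE 0.039). CEBPB, a leucine zipper factor, rose by 1.61 and TFAP2C, an AP-2 factor, by 1.62. ADNP, a homeobox protein of chromatin remodelling, was called higher by 1.16 with an SE of 0.43, since shSETD2 library 3 was at 9.96 FPKM and libraries 1 and 2 at 31.1 and 32.6 FPKM, against 8.76 to 9.89 FPKM in the control. Its call was lost without any 1 of the libraries other than shSETD2 library 3 (adjusted p from 0.0860 to 0.130, limma). Beside factors listed at 0 in the shSETD2 libraries (INSM1, NKX2-4, NKX2-2 and GATA5), SOX12 (-0.48), ZNF337 (-0.79), PLAGL2, TGIF2 (-1.24), TCFL5 and SOX18 were lower.

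Of 20 genes of matrix, adhesion and cytoskeleton 11 were listed and 8 were members, 5 called higher (62.5%) and 3 lower (37.5%), with a median of 1.53. All members had shares of 57.3% and 23.4%, and all genes 26.8% and 51.8%. LAMA5, a laminin chain of basement membranes, was at 7.55, 6.97 and 7.20 FPKM against 55.2, 47.4 and 53.2 FPKM and rose by 2.68 (SE 0.067), and FERMT1, a kindlin of integrin adhesions, rose by 2.31. The falls were EMILIN3, SULF2 and BFSP1 (-0.28), a lens filament protein whose difference was 0.26 under quantile normalization and which was not called under median ratio scaling (-0.17, adjusted p = 0.0946, limma). Of 27 genes of WAP-domain, Kunitz and cystatin protease inhibitors 4 were listed and 3 were members. SLPI was listed at 0 in the control libraries and at 4.74, 4.58 and 5.91 FPKM in the shSETD2 libraries, WFDC2 rose by 1.78, and CST3 had a difference of -0.08 that was not called and was 0.23 under median ratio scaling.

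Of 15 chromatin regulators and transcription coregulators 14 were members, of which 9 were called higher (64.3%), 2 lower (14.3%) and 3 neither (median 0.36). Beside these stood 57.3% and 23.4% of all members and 26.8% and 51.8% of all genes. NCOA3, a coactivator of nuclear receptors, was at 6.001, 6.08 and 4.65 FPKM against 42.7, 43.5 and 37.4 FPKM and rose by 2.69 (SE 0.11). ASXL1, a Polycomb-associated protein, rose by 1.01, and YTHDF1, a reader of methylated RNA, by 0.43. DNMT3B, a DNA methyltransferase, was at 9.998, 9.63 and 8.12 against 3.51, 2.71 and 3.27 FPKM and fell (difference -1.30, SE 0.10). Of 6 imprinted genes of the chromosome 3 were members. GNAS rose by 1.40 and BLCAP by 0.59, while L3MBTL1, which encodes a reader of methylated histones and belongs to both lists, was at 2.83, 2.88 and 2.54 against 0.287, 0.229 and 0.262 FPKM (difference -1.57).

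Not every large difference was on a list. BCL2L1, near the start of the long arm, was at 6.43, 6.07 and 5.67 FPKM against 86.0, 80.2 and 86.0 FPKM and rose by 3.59 (SE 0.056), the highest of its bin. PARD6B was at 5.97, 6.15 and 5.96 against 78.1, 86.9 and 74.99 FPKM. RIN2, a guanine nucleotide exchange factor of the short arm, was at 1.07, 1.23 and 1.10 against 19.95, 20.3 and 19.1 FPKM and rose by 3.29 (SE 0.054). RBM12, an RNA-binding protein and the lowest of the bin from 30 to 35 Mb, was at 24.98, 9.57 and 4.67 FPKM in the control and 2.98, 3.56 and 3.66 FPKM in the shSETD2 libraries (difference -1.40, SE 0.52), with control library 1 far above the others. Without that library the difference of RBM12 was -0.82 and still called. Its call was lost without control library 2 or without any 1 of the shSETD2 libraries (adjusted p from 0.0858 to 0.106, limma). It was also lost under quantile normalization (-1.26, adjusted p = 0.0844, limma) and median ratio scaling (-1.12, adjusted p = 0.0858, limma).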

How the data were processed

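The data are 6 RNA-seq libraries of H1650 cells, grouped as 3 control and 3 shSETD2 by the labels. The authors mapped reads to hg19 (GRCh37) with HISAT2, as the submitters' processing notes also name, quantified genes with Ballgown and deposited FPKM per gene and library for 15897 genes. Versions and the filter behind the listed genes are not given in the sources used here. A second deposited table repeats these values and adds the authors' own group comparison (log2 fold change, fold change, p-value and q-value), which was not used. FPKM carries no counts, so depth and counting error are unknown, and precision rests on the spread over 3 libraries.

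Genes with a mean of at least 0.5 FPKM (14068) entered a linear model of 2 groups on log2(FPKM + 1) in limma 3.58.1 (R 4.3.3), moderated with a mean-variance trend. P-values were adjusted over all of them by Benjamini-Hochberg, with 0.05 as the threshold. Medians, bins of 5 Mb, windows of 25 genes and Spearman's rho were computed in Python 3.11.15 with pandas 2.3.3 and numpy 2.4.6, and figures were drawn with matplotlib 3.10.9. The replicate SD of a median combines the SDs of its per-library values in both groups. Of 372 member identifiers, 369 were found in the GRCh37 annotation.

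The members and lists were chosen with earlier results of these data known. Named by rule were the 8 largest rises and 8 largest falls, the 5 highest means, the genes at the lower limit, the highest, lowest and strongest of each list, head-to-head pairs with the largest shared change, and SETD2. Other genes were named after their values were seen, and a few items are not reported here. Simulated data with known changes were used to check the model.

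Libraries of the 2 groups share replicate numbers. Same-numbered libraries had correlations of their deviations of -0.024, 0.018 and -0.0077, against -0.055 to 0.063 for the others. No pairing by number was seen, but so few libraries cannot exclude one. Alternatives were pseudocounts of 0.1 and 0.01, no filter or a mean of at least 5 FPKM, scaling by upper quartile, quantiles or median ratio, no trend, a replicate block, protein-coding genes only, and each library left out.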

Additional observations from a re-analysis of the deposited data

How the results depend on the processing

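The median difference of chromosome 20, its distance from all genes, and the medians of the short and the long arm kept their sign in all 16 alternative settings. Among these, no trend and a replicate block cannot move a median. The sizes moved. For chromosome 20, its distance from all genes, the long arm and the long arm minus the short arm, in that order, the values were 0.48, 0.84, 0.61 and 0.45 with a pseudocount of 0.1, and 0.48, 0.85, 0.62 and 0.46 with 0.01. With the short arm placed before the long arm, they were 0.32, 0.61, 0.08, 0.40 and 0.32 with no filter, 0.60, 0.73, 0.28, 0.71 and 0.44 with a mean of at least 5 FPKM, and 0.49, 0.75, 0.20, 0.60 and 0.40 with protein-coding genes only. For chromosome 20, the short arm and the long arm they were 0.44, 0.19 and 0.57 under upper quartile scaling, 0.50, 0.21 and 0.60 under quantile normalization (distance from all genes 0.60) and 0.70, 0.45 and 0.80 under median ratio scaling (distance 0.73).

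With a mean of at least 5 FPKM, fewer genes enter the test, 236 members and 7078 genes in all. Of the members 172 were called higher and 27 lower, and of all genes 2401 and 3246. Among those called, 86.4% of the members and 42.5% of all genes were higher. With 1 library left out, the chromosome 20 median ranged from 0.39 to 0.43, its distance from all genes from 0.68 to 0.73, the short arm from 0.10 to 0.15, the long arm from 0.51 to 0.55 and their distance from 0.38 to 0.42. Members called higher then ranged from 206 to 216 and lower from 78 to 85, and all genes from 3587 to 3704 and from 6925 to 7097.

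With the replicate number as a block, 216 members were called higher and 81 lower and the medians were the same. No pairing by number was seen in the libraries. With the block, SOX18 (adjusted p = 0.0745), RBM12 (0.0524) and OPRL1 (0.0609), all by limma, lost their call.

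Of 1471 values for 94 named genes, 1423 kept direction and call, 34 lost the call, 6 gained it and 8 changed sign. The sign changes were SNRPB (-0.11), BFSP1 (0.26), SOX18 (0.02) and OPRL1 (0.29) under quantile normalization, PCNA (0.17), CST3 (0.23) and NOP56 (0.13) under median ratio scaling, and CSTF1 (0.00) without shSETD2 library 1. The cause was not tested. Depth is unknown, so the counting error of low levels, exact zeros and differences between genes near the lower limit could not be estimated.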
